A study of Mus musculus with 16 samples.

Results

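Cell death and p53 target genes were followed in mouse kidneys 24 h after unilateral ureteral obstruction (UUO), in wildtype (WT) and IL-33-deficient mice. The genes came from a list of 48 symbols covering the BCL-2 family, caspases, inhibitors of apoptosis, death receptors, necroptosis, p53 and its targets, inflammasome components and ferroptosis, and 46 of them were rows of the value table, which held 18132 gene symbols. XIAP and TRADD were not found under these symbols and were skipped. The 4 groups of kidneys compared were each measured as whole-tissue RNA on a MouseRef-8 v2 BeadChip. WT control kidneys (n = 2) and IL-33-deficient control kidneys (n = 2) came from untreated mice. WT kidneys (n = 7) and IL-33-deficient kidneys (n = 5) were collected 24 h after the left ureter had been closed with a clip. The line deficient in Il33 had been backcrossed to C57BL/6J BomTac, and per the methods the mice were 8 weeks old unless stated otherwise. The labels put the UUO arrays into 2 sets, set 1 of 3 WT plus 2 IL-33-deficient arrays, and set 2 of 4 WT plus 3 IL-33-deficient arrays, with no set given for the controls. The labels do not say that each array was a separate mouse, so the p-values measure the spread between these arrays.

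UUO blocks urine outflow, and the rise in pressure damages and stretches the tubular epithelium. In mitochondrial apoptosis, BCL-2 family proteins decide whether the outer mitochondrial membrane is opened, and released cytochrome c then drives APAF1 and caspase-9. Death receptors start caspase-8 instead, and where caspase-8 is blocked RIPK1, RIPK3 and MLKL can carry out necroptosis. The transcription factor p53, encoded by TRP53 in the mouse, induces CDKN1A, which halts the cell cycle, as well as its own inhibitor MDM2 and pro-apoptotic genes such as BAX, BBC3 and PMAIP1.

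Values are given as log2 intensity after quantile normalization, and a member was called changed after UUO where the Benjamini-Hochberg adjusted p of limma over all 18132 features was below 0.05. An unexpressed gene still gives a background intensity, so that differences of dim genes are compressed, and the median of all features was 7.05. CASP12, FASL, CFLAR, AEN, PERP and NLRP3 lay below that median in all 4 groups. IL33 itself was at 8.39 to 9.57 in the WT UUO arrays and at 6.80 to 7.02 in the IL-33-deficient UUO arrays. All 5 injury markers in the table were higher after UUO in both genotypes, with HAVCR1, the kidney injury molecule, up by 5.78 in WT and by 6.52 in IL-33-deficient kidneys on the log2 scale. Of 16 leukocyte markers 3 were called higher and 1 lower in WT, and 6 higher and 1 lower in IL-33-deficient kidneys. Of 8 proximal tubule markers 0 and 6 were called lower, of 8 markers of other nephron cells 5 and 4 lower, of 6 fibroblast markers 3 and 4 higher, and of 6 endothelial markers 0 and 1 lower, in that order of genotypes. The summed intensity of 16 leukocyte markers was 12.07 to 12.14 (log2) in WT controls, 12.19 to 13.43 after UUO, 11.79 to 12.01 in IL-33-deficient controls and 12.76 to 13.40 after UUO. For 8 proximal tubule markers the sums were 15.69 to 15.70, 14.81 to 15.70, 15.76 to 15.80 and 14.37 to 15.13 in the same order. The part of these shifts in the members' values was not tested, and in whole tissue fewer cells of a type and less RNA per cell cannot be told apart. The WT UUO arrays 3818 and 3820 of set 1 lay nearest to the controls: of the 10 members called higher in WT kidneys, array 3818 had the lowest of the 7 UUO values for 6 and array 3820 for the other 4.

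The growth arrest genes CDKN1A and GADD45A, TRP53 itself and several regulators of apoptosis were higher 24 h after UUO in both genotypes. In WT kidneys 10 of the 46 members (21.7%) were called higher, against 6.97% of all features, and 1 (2.17%) lower, against 8.22%. In IL-33-deficient kidneys 16 members (34.8%) were called higher, against 10.6% of all features, and 1 (2.17%) lower, against 11.2%. All features include many dim ones. Among only the features brighter than the median, 15.8% were called higher in WT and 22.2% in IL-33-deficient kidneys. Of the members in that brighter part, 48.7% and 59% had an unadjusted limma p under 0.05, against 43.3% and 51.7% of its features. The excess of the members was thus smaller beside features of like brightness. The median log2 fold change of the members was 0.08 in WT and 0.18 in IL-33-deficient kidneys, beside medians of -0.00076 and -0.00057 over all features. The sign of the change was the same in both genotypes for 37 of the 46. Both pro-survival and pro-death genes were among the 8 members called higher in both genotypes, which were GADD45A, CDKN1A, TRP53, BCL2L1, MCL1, PMAIP1, ACSL4 and MLKL. The WT count depended on the labelled set. No member was called from the set 1 arrays, against 0.447% of all features called higher. From those of set 2, 16 were called higher and 5 lower, against 11.5% and 11.9% of all features. The mean differences from the WT controls in set 1 and set 2 (log2) were 1.63 and 1.75 for GADD45A and 0.57 and 0.46 for PMAIP1. They were 0.98 and 1.46 for CDKN1A, 0.69 and 0.99 for TRP53 and 0.39 and 0.81 for BCL2L1. Set 1 held 3 WT UUO arrays and set 2 held 4, and the reason for the different counts was not tested. Without WT arrays 3818 and 3820 the WT count was 15 higher and 3 lower, against 11.1% and 11.6% of all features. The counts also depended on the controls. In WT kidneys 4 members were called higher without control array 3811 (2.53% of all features) and 2 without control array 3812 (2.02%). In IL-33-deficient kidneys 8 were called higher without control array 3813 (5.82% of all features) and 8 without 3814 (6.67%). The share of all features called thus fell as well.

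**Figure D1:**
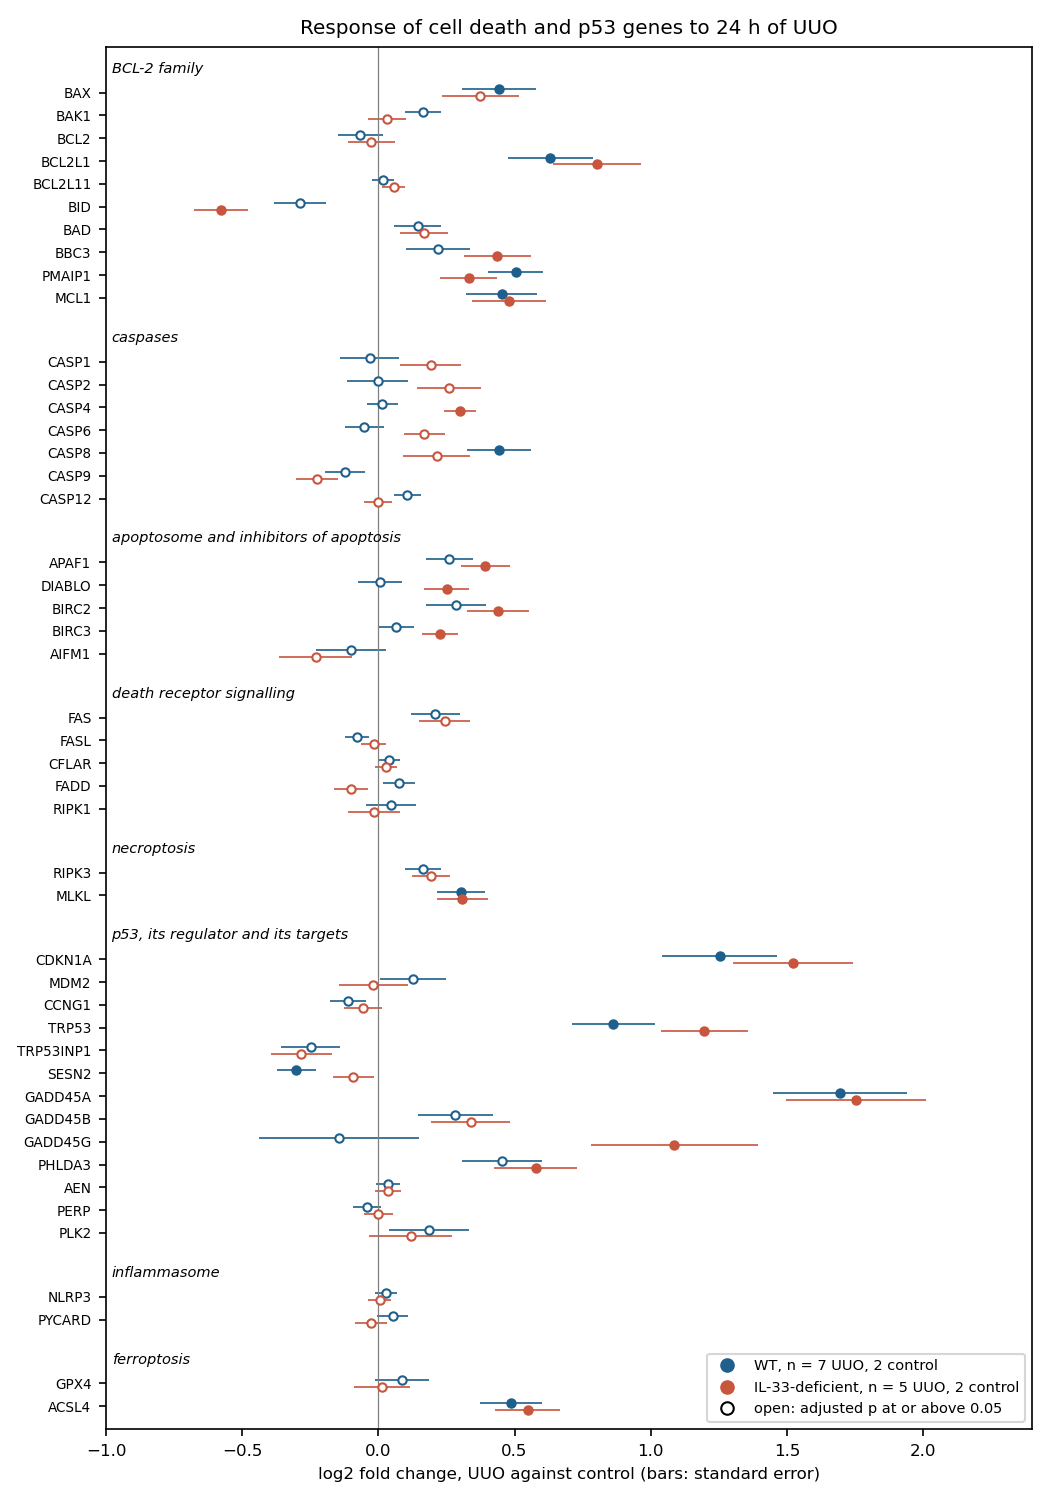
Log2 fold change after UUO (x axis, bars are standard errors) of the 46 members, ordered by role, in WT kidneys (blue, 7 UUO and 2 control arrays) and IL-33-deficient kidneys (red, 5 UUO and 2 control arrays). Filled points passed an adjusted p of 0.05, and GADD45A, CDKN1A and TRP53 lie furthest to the right in both genotypes.

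Among p53, its regulator and its targets, GADD45A showed the largest change of all members. GADD45A encodes a stress protein that binds PCNA and CDK1 and takes part in growth arrest and DNA repair. Its log2 intensity was 9.13 and 8.68 in the WT controls and 9.81 at the lowest, 10.74 at the median and 10.95 at the highest of the 7 WT UUO arrays. In IL-33-deficient kidneys it was 8.89 and 8.77 in the controls and 10.62, 10.41, 11.01, 10.72 and 10.17 after UUO. No UUO value overlapped the controls of its genotype. The log2 fold change was 1.70 ± 0.25 (SE) in WT kidneys, a 3.24-fold rise (adjusted p = 0.000544), and 1.75 ± 0.26 in IL-33-deficient kidneys, a 3.38-fold rise (adjusted p = 0.000207).

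CDKN1A, the cyclin-dependent kinase inhibitor p21, was at 7.85 and 7.66 in WT controls and at 8.30, 9.20 and 9.37 as the lowest, median and highest value after UUO. In IL-33-deficient kidneys it was at 7.57 and 7.45 in the controls and at 9.01, 9.05, 9.06, 9.14 and 8.89 after UUO. Controls and UUO arrays were separate in both genotypes, and the IL-33-deficient UUO arrays lay within the range of the WT ones. The rise was 2.38-fold in WT (log2 1.25 ± 0.21, adjusted p = 0.00137) and 2.87-fold in IL-33-deficient kidneys (1.52 ± 0.22, adjusted p = 0.000196).

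TRP53 transcripts, which encode p53, rose 1.82-fold in WT kidneys (log2 0.86 ± 0.15, adjusted p = 0.00176) and 2.29-fold in IL-33-deficient kidneys (1.20 ± 0.16, adjusted p = 0.000108). The WT controls were at 8.37 and 8.20, and the WT UUO arrays ran from 8.71 through a median of 9.24 to 9.40. The IL-33-deficient controls were at 8.17 and 8.32, and the UUO arrays at 9.59, 9.49, 9.48, 9.31 and 9.33. The 2 lowest WT UUO values, 8.83 and 8.71, were those of arrays 3818 and 3820.

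GADD45B and GADD45G gave other patterns. GADD45B was 0.28 ± 0.14 (log2) higher in WT and 0.34 ± 0.14 higher in IL-33-deficient kidneys, and was called in neither (adjusted p = 0.215 and 0.12). GADD45G, another stress-inducible growth arrest gene of the family, was called in IL-33-deficient kidneys, where it rose by 1.09 ± 0.31 (adjusted p = 0.0184), while the WT value was -0.14 ± 0.29 (adjusted p = 0.844). The arrays behind these values differed most in the controls. In controls GADD45G was at 10.48 and 10.05 for WT but at 8.98 and 8.87 for IL-33-deficient kidneys, whereas after UUO it was at 9.45, 10.02 and 11.20 (lowest, median, highest) in WT and at 9.99, 9.83, 10.04, 10.22 and 9.99 in IL-33-deficient kidneys. The UUO arrays of the genotypes overlapped and the controls did not. The WT UUO arrays also differed by set, with a mean difference from the controls of 0.28 in set 1 and -0.46 in set 2.

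PHLDA3, a p53 target that restrains AKT at the membrane, rose by 0.58 ± 0.15 (log2) in IL-33-deficient kidneys (adjusted p = 0.0126), and its WT value of 0.45 ± 0.15 missed the threshold (adjusted p = 0.0506). Its WT controls were at 7.21 and 7.38 and the WT UUO arrays at 7.34, 7.79 and 8.03 (lowest, median, highest), with array 3820 between the controls. In IL-33-deficient kidneys the controls were at 7.39 and 7.504 and the UUO arrays at 8.26, 8.18, 7.97, 7.97 and 7.73, all above the controls. SESN2, a sestrin that restrains mTORC1 under stress, was the member called lower in WT kidneys (-0.30 ± 0.07, adjusted p = 0.0114). All 7 WT UUO values, 7.55 to 7.75, lay below the WT controls at 7.86 and 8.001, while in IL-33-deficient kidneys the controls were at 7.55 and 7.71 and the difference was -0.09 ± 0.08 (adjusted p = 0.489).

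Other well-known p53 targets were not called. MDM2, the ubiquitin ligase that degrades p53, differed from controls by 0.13 ± 0.12 (log2) in WT and -0.02 ± 0.13 in IL-33-deficient kidneys. CCNG1, cyclin G1, differed by -0.11 ± 0.07 and -0.06 ± 0.07. The 95% intervals ran from -0.13 to 0.39 for MDM2 and from -0.26 to 0.03 for CCNG1 in WT kidneys. TRP53INP1, a nuclear protein that promotes p53 activity, was below both controls in 7 of 7 WT and 4 of 5 IL-33-deficient UUO arrays, with log2 fold changes of -0.25 ± 0.11 (adjusted p = 0.148) and -0.28 ± 0.11 (adjusted p = 0.0899). PLK2, a polo-like kinase, differed by 0.19 ± 0.15 and 0.12 ± 0.15. AEN, an apoptosis-enhancing nuclease, and PERP, a membrane protein of desmosomes, were dim, with values of 6.84 to 7.01 and 6.77 to 6.98 over all 16 arrays, so that any change in them is compressed towards the background.

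**Figure D2:**
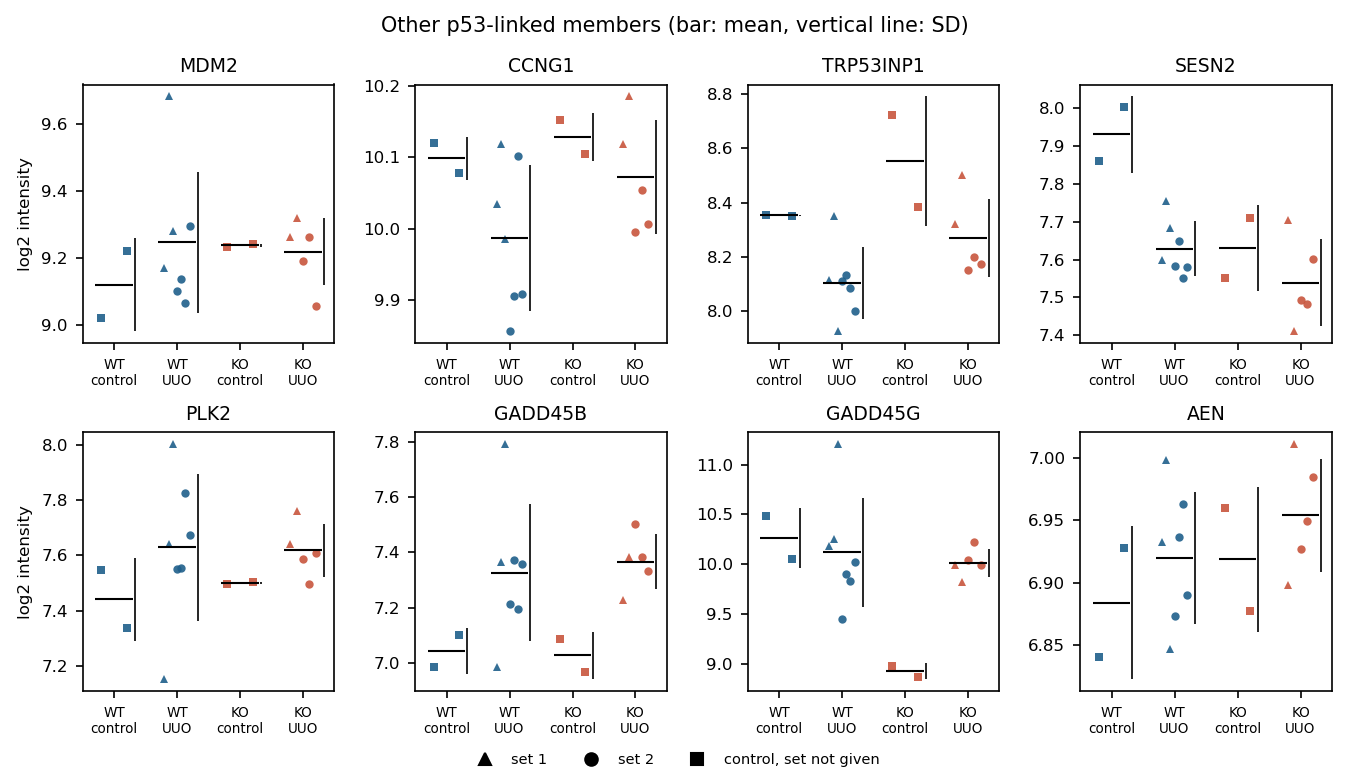
Log2 intensity (y axis) of MDM2, CCNG1, TRP53INP1, SESN2, PLK2, GADD45B, GADD45G and AEN in each array, with the group mean as a bar and the SD as a vertical line. WT arrays are blue and IL-33-deficient (KO) arrays red, triangles are set 1, circles set 2 and squares controls. The GADD45G controls stand apart by genotype, at 10.48 and 10.05 against 8.98 and 8.87.

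Promoter sequence is shown for 3 genes of the p53 group that rose in both genotypes, CDKN1A, GADD45A and TRP53, and for 2 p53 targets that were not called, MDM2 and CCNG1. The windows reach from 250 bases before to 50 bases after a RefSeq transcript start of the GRCm38.p6 build, and were found for 43 of the 46 members. Each was searched for the p53 decamer, the 10-base unit that occurs in a pair in a full p53 response element and that reads as the same motif on both strands. The CDKN1A window is shown whole and the others as 60 bases, 5′ to 3′, with matches in capitals.
CDKN1A (chr17:29090729-29091028, plus strand): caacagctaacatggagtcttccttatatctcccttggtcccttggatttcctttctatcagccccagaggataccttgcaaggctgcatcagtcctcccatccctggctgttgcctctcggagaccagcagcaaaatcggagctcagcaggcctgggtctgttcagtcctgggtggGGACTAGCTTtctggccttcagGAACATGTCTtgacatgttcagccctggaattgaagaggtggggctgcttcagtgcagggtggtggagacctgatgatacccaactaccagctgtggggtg
GADD45A (chr6:67037413-67037472, minus strand): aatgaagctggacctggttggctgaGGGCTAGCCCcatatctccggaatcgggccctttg
TRP53 (chr11:69580259-69580318, plus strand): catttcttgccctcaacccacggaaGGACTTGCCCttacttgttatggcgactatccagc
MDM2 (chr10:117710910-117710969, minus strand): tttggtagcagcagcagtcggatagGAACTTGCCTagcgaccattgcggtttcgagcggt
CCNG1 (chr11:40755437-40755496, minus strand): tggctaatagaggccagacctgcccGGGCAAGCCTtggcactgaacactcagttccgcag
A decamer was present in 12 of 58 windows of members (20.7%), belonging to 11 of 43 genes, and in 2745 of 32851 windows of all genes (8.36%). A pair of decamers separated by at most 13 bases was found in 1 window of members, that of CDKN1A, where the spacer was 12 bases and the matches began 73 and 51 bases before the start, and in 24 windows of all genes (0.0731%). The decamer of GADD45A began 40 bases and that of TRP53 75 bases before the start. MDM2 and CCNG1 also had a match, 186 and 185 bases before the start, so that a match was present both in genes that rose and in genes that were not called. The other genes with a match were AEN, BAX, BIRC2, FASL, NLRP3 and PYCARD. These matches describe the letters in these windows, and binding of p53 was not tested. Only exact matches were counted. In CDKN1A the letters tgacatgttc, directly after the second match, miss the decamer by their first base. The marked CDKN1A pair therefore need not be the element that p53 binds. The best known p53 elements of GADD45A and MDM2 lie in introns, outside them.

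In the BCL-2 family, anti-apoptotic and pro-apoptotic genes rose in the same kidneys. BCL2L1, which encodes the anti-apoptotic BCL-XL, rose 1.55-fold in WT (log2 0.63 ± 0.16, adjusted p = 0.0132) and 1.74-fold in IL-33-deficient kidneys (0.80 ± 0.16, adjusted p = 0.00222). Its values were 7.98 and 7.87 in WT controls, 8.21, 8.52 and 8.89 (lowest, median, highest) after UUO, 7.65 and 7.72 in IL-33-deficient controls and 8.45, 8.48, 8.49, 8.51 and 8.51 after UUO. The 5 IL-33-deficient UUO arrays lay within a narrow range, inside the wider range of the WT ones. Within WT kidneys the mean difference from controls was 0.39 in set 1 and 0.81 in set 2.

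MCL1, a short-lived anti-apoptotic protein, rose by 0.45 ± 0.13 (log2) in WT (adjusted p = 0.029) and 0.48 ± 0.14 in IL-33-deficient kidneys (adjusted p = 0.0184). It was at 10.69 and 10.72 in WT controls and at 10.71, 11.23 and 11.32 (lowest, median, highest) after UUO, where array 3818 alone lay between the controls. In IL-33-deficient kidneys it was at 10.79 and 10.43 in the controls and at 10.98, 10.98, 11.08, 11.22 and 11.18 after UUO, all above the controls. BCL2, the founding anti-apoptotic member, was not called, with -0.07 ± 0.08 and -0.03 ± 0.09.

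Of the pro-apoptotic genes, PMAIP1, the BH3-only protein NOXA, rose in both genotypes. The WT controls were at 6.97 and 6.96 and the IL-33-deficient controls at 6.995 and 7.04, below the median of all features. After UUO it was at 7.33, 7.41 and 7.74 (lowest, median, highest) in WT and at 7.27, 7.25, 7.55, 7.47 and 7.20 in IL-33-deficient kidneys, with no overlap with the controls. The log2 fold changes were 0.50 ± 0.10 (adjusted p = 0.00371) and 0.33 ± 0.11 (adjusted p = 0.0341). BAX, which forms pores in the mitochondrial outer membrane, rose by 0.44 ± 0.14 in WT (adjusted p = 0.0405) and differed by 0.37 ± 0.14 in IL-33-deficient kidneys (adjusted p = 0.078). BAX was at 8.57 and 8.77 in WT controls, at 8.77, 9.13 and 9.37 (lowest, median, highest) after UUO, at 8.70 and 9.02 in IL-33-deficient controls and at 9.09, 9.41, 9.09, 9.32 and 9.28 after UUO. One WT UUO array, 3820, overlapped the controls. BBC3, the BH3-only protein PUMA, rose by 0.44 ± 0.12 in IL-33-deficient kidneys (adjusted p = 0.0178), with a WT value of 0.22 ± 0.12 (adjusted p = 0.273).

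BID, the BH3-only protein that caspase-8 cleaves to link death receptors to mitochondria, went the other way. It was at 8.92 and 9.05 in WT controls, at 8.55, 8.66 and 8.98 (lowest, median, highest) in WT UUO arrays, at 9.03 and 9.08 in IL-33-deficient controls and at 8.39, 8.56, 8.33, 8.55 and 8.56 in IL-33-deficient UUO arrays. Every IL-33-deficient UUO array and 6 of 7 WT UUO arrays were below both controls, the exception being array 3820. The fall was 1.49-fold in IL-33-deficient kidneys (log2 -0.58 ± 0.10, adjusted p = 0.000623), and the WT value of -0.29 ± 0.09 narrowly missed the threshold (adjusted p = 0.0532). BAK1, the second pore-forming effector, BCL2L11, the BH3-only protein BIM, and BAD, a BH3-only protein controlled by phosphorylation, were not called, with log2 fold changes of 0.02 to 0.17 over both genotypes.

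**Figure D3:**
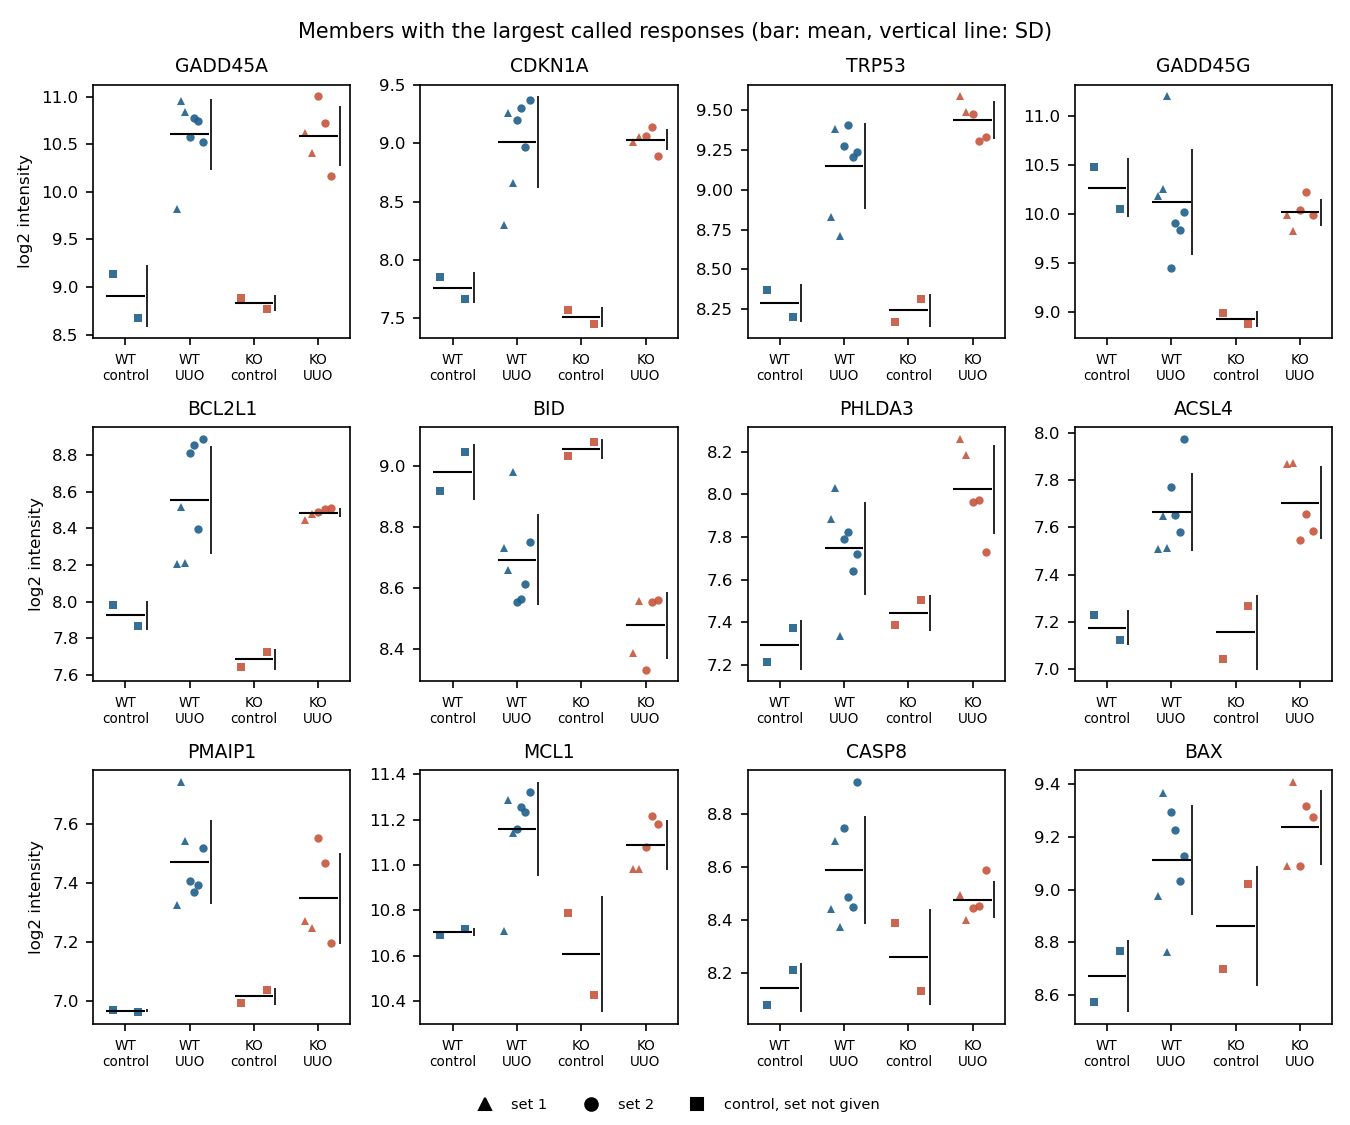
Log2 intensity (y axis) in each of the 16 arrays for the 12 called members with the largest fold changes after UUO, with the group mean as a bar and the SD as a vertical line. WT arrays are blue and IL-33-deficient (KO) arrays red, triangles are set 1, circles set 2 and squares controls. In GADD45A, CDKN1A, TRP53 and BCL2L1 no UUO array overlaps the controls of its genotype, and BID is lower after UUO.

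Among the caspases 1 of 7 (14.3%) was called in each genotype, which is no more than the share of all features called in either direction, 15.2% in WT and 21.8% in IL-33-deficient kidneys. CASP8, the initiator caspase of death receptors, rose by 0.44 ± 0.12 (log2) in WT kidneys (adjusted p = 0.0199), with an IL-33-deficient value of 0.21 ± 0.12 (adjusted p = 0.276). Its WT controls were at 8.08 and 8.21 and the WT UUO arrays at 8.38, 8.49 and 8.92 (lowest, median, highest), with no overlap. In IL-33-deficient kidneys the controls were at 8.39 and 8.13 and the UUO arrays at 8.50, 8.40, 8.45, 8.45 and 8.59, all above the controls but close to the higher one. CASP4, the mouse caspase-11 that senses cytosolic lipopolysaccharide, rose by 0.30 ± 0.06 in IL-33-deficient kidneys (adjusted p = 0.00184), from 7.12 and 7.07 to 7.43, 7.46, 7.41, 7.41 and 7.25. In WT kidneys CASP4 was at 7.21 and 7.25 in the controls and at 7.11, 7.26 and 7.33 (lowest, median, highest) after UUO, a difference of 0.01 ± 0.06 (adjusted p = 0.925). CASP9, the initiator caspase of the apoptosome, was lower by values that missed the threshold (-0.12 ± 0.07 in WT, -0.23 ± 0.08 in IL-33-deficient kidneys, adjusted p = 0.347 and 0.0508). CASP1, which matures IL-1β and IL-18, CASP2, an initiator tied to the DNA damage response, CASP6, an executioner, and CASP12, an endoplasmic reticulum caspase, ranged from -0.05 to 0.26 and were not called.

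In the apoptosome and inhibitor of apoptosis group, 4 of 5 members were called higher in IL-33-deficient kidneys, against 10.6% of all features. In WT kidneys 0 were called higher, against 6.97% of all features, and 2 of the 5 had an unadjusted limma p under 0.05. APAF1, the scaffold of the apoptosome, rose by 0.39 ± 0.09 (log2, adjusted p = 0.00519), beside 0.26 ± 0.09 in WT (adjusted p = 0.0571). BIRC2, the ubiquitin ligase cIAP1, rose by 0.44 ± 0.11 (adjusted p = 0.011), beside 0.29 ± 0.11 (adjusted p = 0.0998). BIRC3, the related cIAP2, rose by 0.23 ± 0.07 (adjusted p = 0.0247), beside 0.06 ± 0.06. BIRC3 was close to the background, with means of 6.83 in IL-33-deficient controls and 7.05 after UUO, and of 6.91 and 6.97 in WT kidneys. DIABLO, the mitochondrial protein SMAC that relieves caspases of their inhibitors, rose by 0.25 ± 0.08 (adjusted p = 0.0446), beside 0.01 ± 0.08. The direction of APAF1 and BIRC2 was thus shared, and the difference between genotypes in the response had an unadjusted limma p of 0.306 and 0.344 for them, 0.105 for BIRC3 and 0.0535 for DIABLO. AIFM1, a mitochondrial flavoprotein released in caspase-independent death, was not called, with -0.10 ± 0.13 and -0.23 ± 0.13. XIAP, skipped under its listed symbol, had a row under its older symbol BIRC4, which was left outside the members. BIRC4 was dim, at 6.92 to 6.93 in IL-33-deficient controls and 6.78 to 6.93 after UUO. In WT kidneys it was at 6.83 to 6.85 and 6.83 to 6.97.

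Of the 5 members of the death receptor group, 0 were called in either genotype, against 15.2% and 21.8% of all features. This covers the members only. TNFRSF1A, a TNF receptor outside the members, was at 7.31 and 7.44 in WT controls and at 7.81 to 8.32 after UUO. In IL-33-deficient kidneys TNFRSF1A was at 7.21 and 7.26 in the controls and at 8.06 to 8.12 after UUO. FAS, the receptor for FAS ligand, was above both controls of its genotype in every UUO array, with log2 fold changes of 0.21 ± 0.09 in WT (adjusted p = 0.147) and 0.24 ± 0.09 in IL-33-deficient kidneys (adjusted p = 0.0801). FASL, its ligand, and CFLAR, the caspase-8 inhibitor cFLIP, were dim, at 6.80 to 6.99 and 6.72 to 6.87 over all arrays. FADD, the adaptor between receptor and caspase-8, and RIPK1, the kinase at the branch between survival, apoptosis and necroptosis, differed by -0.10 to 0.08 from controls and were not called.

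In necroptosis, MLKL, the protein that permeabilizes the plasma membrane, rose in both genotypes, by 0.30 ± 0.09 (log2) in WT (adjusted p = 0.0325) and 0.31 ± 0.09 in IL-33-deficient kidneys (adjusted p = 0.0267). It was at 6.92 and 6.87 in WT controls, at 6.94, 7.25 and 7.36 (lowest, median, highest) after UUO, at 6.97 and 6.98 in IL-33-deficient controls and at 7.28, 7.33, 7.36, 7.29 and 7.16 after UUO. No UUO array overlapped its controls, though WT array 3820 was only just above them. The controls of both genotypes and array 3820 lay below the median of all features. With a fold change minimum of 1.3 the MLKL call was lost in both genotypes. RIPK3, the kinase that activates MLKL, differed by 0.16 ± 0.07 and 0.19 ± 0.07 (adjusted p = 0.116 and 0.058).

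In ferroptosis, ACSL4, which loads polyunsaturated fatty acids into phospholipids that can be peroxidized, rose 1.40-fold in WT (log2 0.49 ± 0.12, adjusted p = 0.0101) and 1.46-fold in IL-33-deficient kidneys (0.55 ± 0.12, adjusted p = 0.0037). It was at 7.23 and 7.12 in WT controls, at 7.51, 7.65 and 7.97 (lowest, median, highest) after UUO, at 7.04 and 7.27 in IL-33-deficient controls and at 7.87, 7.87, 7.54, 7.66 and 7.58 after UUO. Every UUO array lay above the controls of its genotype. GPX4, the enzyme that removes phospholipid peroxides, differed by 0.09 ± 0.10 and 0.01 ± 0.10 and was not called. In the inflammasome group, the sensor NLRP3 was dim at 6.79 to 6.94, and the adaptor PYCARD differed by 0.05 ± 0.06 and -0.03 ± 0.06.

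The study asked how loss of IL-33 alters the kidney 24 h after UUO, and for these members the direct comparison gave small differences. The threshold of the study's methods was a fold change above 1.3 with an unadjusted p below 0.05 and an adjusted p below 0.25. With it, limma called 0 of the 46 members between the 5 IL-33-deficient and all 7 WT UUO arrays, against 0.011% of all features. At an unadjusted p under 0.05 there were 9 members (19.6%), against 10.3% of all features. That count depended on the arrays, with 5 members without IL-33-deficient array 3822 (7.74% of all features), 6 without array 3821 (8.64%), 16 without WT arrays 3818 and 3820 (9.97%), and 18 with the 4 WT arrays of set 2 in place of all 7 (12.3%). The paper applied its threshold to 5 IL-33-deficient and 4 WT samples, and reported probes in both directions. Its text does not say which 4 WT samples these were. With the 4 WT arrays of set 2, 0 members passed that threshold, against 1.25% of all features. The 5 IL-33-deficient arrays came from both sets, so genotype and set cannot be fully told apart in this choice. The same limit holds for its 18 members at an unadjusted p under 0.05. Of the 9 members with an unadjusted p under 0.05 among all 12 UUO arrays, BAD, CASP1, CASP2, CASP4, DIABLO, TRP53, TRP53INP1 and PHLDA3 were higher in IL-33-deficient kidneys. BID was lower. The median log2 difference of the members was 0.03, beside 0.0026 over all features. For GADD45A and CDKN1A the differences were -0.02 and 0.02, with 95% intervals from -0.42 to 0.39 and from -0.34 to 0.38, so that differences within those bounds were not detectable with these arrays.

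**Figure D4:**
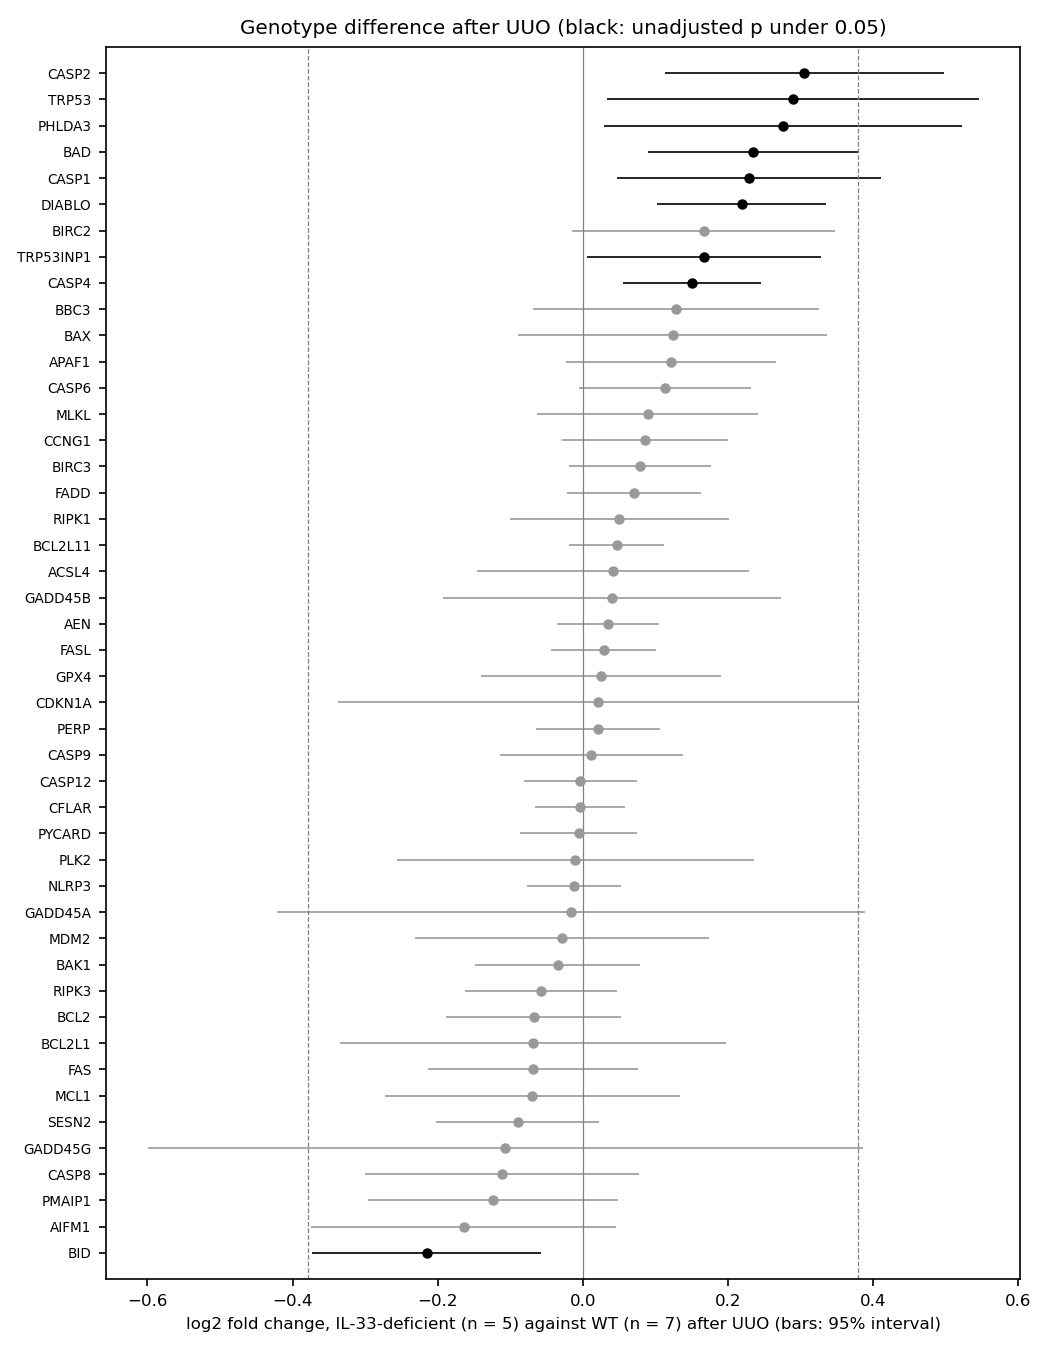
Log2 fold change of IL-33-deficient (5 arrays) against WT kidneys (7 arrays) after UUO for the 46 members, with 95% intervals. Dashed lines mark a fold change of 1.3 in either direction and black points an unadjusted p under 0.05. No point lies beyond the dashed lines.

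Single members were compared with an exact permutation test over the 792 ways to assign the 12 UUO arrays, whose smallest possible two-sided p is 0.00126. CASP2 was at 8.82, 9.27 and 9.42 (lowest, median, highest) in WT and at 9.60, 9.56, 9.42, 9.44 and 9.58 in IL-33-deficient UUO arrays, a log2 difference of 0.31 (exact p = 0.00379, limma adjusted p = 0.32). It was the single member whose groups did not overlap, beside 0.756% of all features, and the gap between the groups was small. The difference was 0.44 within set 1 and 0.21 within set 2.

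DIABLO was at 9.57, 9.69 and 9.87 (lowest, median, highest) in WT and at 9.95, 10.02, 9.79, 9.89 and 9.94 in IL-33-deficient UUO arrays, a difference of 0.22 (exact p = 0.00505, limma adjusted p = 0.311), with 0.37 in set 1 and 0.11 in set 2. BAD was at 8.99, 9.07 and 9.21 in WT and at 9.31, 9.56, 9.37, 9.11 and 9.35 in IL-33-deficient UUO arrays, a difference of 0.23 (exact p = 0.00631, limma adjusted p = 0.32), with 0.30 in set 1 and 0.19 in set 2. For BAD the WT controls were at 8.96 and 8.97 and the IL-33-deficient controls at 9.16 and 9.19, so that a log2 difference of 0.21, which was not called, was also present between the controls. CASP4 was higher by 0.15 (exact p = 0.0114, limma adjusted p = 0.32), with 0.21 in set 1 and 0.11 in set 2, and BID lower by a log2 difference of -0.22 (exact p = 0.0126, limma adjusted p = 0.347), with -0.32 and -0.14. TRP53 was higher by 0.29 (exact p = 0.0467, limma adjusted p = 0.433), with 0.57 in set 1, which holds WT arrays 3818 and 3820, and 0.09 in set 2.

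**Figure D5:**
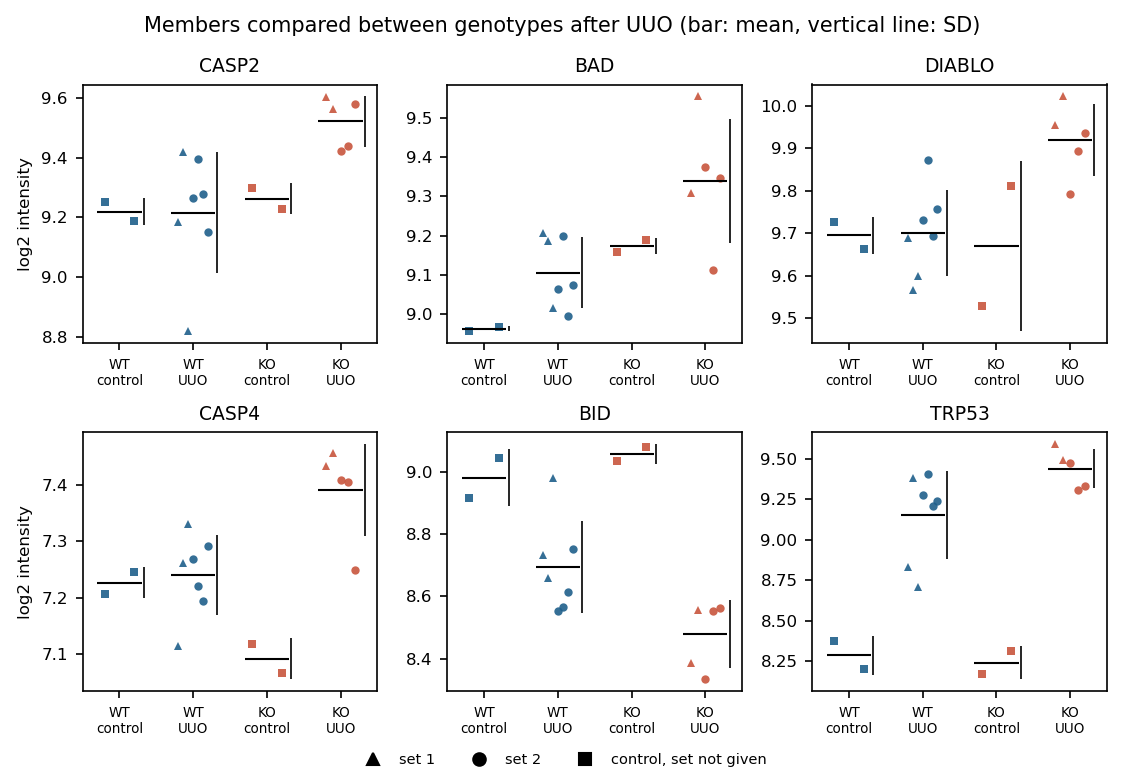
Log2 intensity (y axis) of CASP2, BAD, DIABLO, CASP4, BID and TRP53 in each array, with the group mean as a bar and the SD as a vertical line. WT arrays are blue and IL-33-deficient (KO) arrays red, triangles are set 1, circles set 2 and squares controls. CASP2 values after UUO reach 9.42 at the highest in WT and start at 9.42 in IL-33-deficient kidneys, and the BAD controls differ between genotypes.

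Between control kidneys limma called 0 members, with 0% of all features called. At an unadjusted p under 0.05 there were 3 members (6.52%), against 3.66% of all features. FADD was higher in IL-33-deficient controls (8.25 and 8.37 against 8.001 and 8.13), and GADD45G and SESN2 were lower (SESN2 7.55 and 7.71 against 7.86 and 8.001). With 2 arrays a group, the spread is taken from the 4 groups together. The difference between genotypes in the response to UUO was called for 0 members, with 0% of all features called, and had an unadjusted p under 0.05 for 3 members (6.52%), against 4.74% of all features. These were CASP4, GADD45G and CASP6, with differences in log2 fold change of 0.29 ± 0.08, 1.23 ± 0.43 and 0.22 ± 0.10. The limma adjusted p was 0.973 for each. A call in a single genotype, as for CASP8, BAX, BID or DIABLO, was therefore not shown to differ between genotypes.

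Other genes of the same pathways were taken from a separate list of 88 symbols, of which 79 were in the table. In WT kidneys 11 of the 79 were called higher and 7 lower, and in IL-33-deficient kidneys 15 higher and 7 lower. The shares higher were 13.9% and 19%, against 6.97% and 10.6% of all features, and the share lower was 8.86% in both, close to the 8.22% and below the 11.2% of all features. TNFRSF12A, the receptor of the cytokine TWEAK, changed most, by 2.88 ± 0.37 (log2, adjusted p = 0.000227) in WT and 3.34 ± 0.38 in IL-33-deficient kidneys (adjusted p = 4e-05). GDF15, a secreted stress hormone and p53 target, rose by 2.09 ± 0.33 (adjusted p = 0.000933) and 2.52 ± 0.34 (adjusted p = 0.000125). HMOX1, which degrades heme, rose by 1.65 ± 0.51 (adjusted p = 0.0391) and 1.90 ± 0.53 (adjusted p = 0.0165). ATF3, a stress transcription factor, was called in WT kidneys (1.06 ± 0.33, adjusted p = 0.0448) with an IL-33-deficient value of 0.82 ± 0.35 (adjusted p = 0.118). DDIT4, an inhibitor of mTORC1, was called in IL-33-deficient kidneys (0.98 ± 0.25, adjusted p = 0.0105) with a WT value of 0.73 ± 0.24 (adjusted p = 0.0556). Of 29 further genes listed with the p53 targets, 6 were called higher and 4 lower in WT kidneys, beside 7 higher and 4 lower in IL-33-deficient ones. That list was fixed by symbol, not every gene in it is an established target, and dependence on p53 was not tested. The calls went in both directions and made up 34.5% and 37.9% of the 29, against 15.2% and 21.8% of all features. Of all features 6.97% and 10.6% were called higher, and 8.22% and 11.2% lower. RRM2B, a ribonucleotide reductase subunit, SESN1, a sestrin, and TRP53INP2, an autophagy protein, fell in both genotypes, by values named here after they were seen (log2 fold changes of -0.41 and -0.43 for RRM2B, -0.48 and -0.53 for SESN1, and -0.67 and -0.41 for TRP53INP2). Between IL-33-deficient and WT UUO arrays limma called 0 of the 79 at the threshold of the methods and 8 (10.1%) at an unadjusted p under 0.05, the share of all features being 10.3%.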

How the data were processed

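RNA of 16 whole mouse kidneys was measured on Illumina MouseRef-8 v2 BeadChips. The authors deposited 1 table of linear intensities for 18132 gene symbols, from 95.5 to 23471, with array medians of 132 to 133, so the arrays had been scaled alike. The paper names import with beadarray, the submitters' processing notes name BeadStudio 2, and the scaling and the choice of 1 value per gene are not given in the sources used here. No detection p-values were used here, so a dim gene cannot be told from an unexpressed one, and precision is limited by how many arrays each group has.

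The deposited intensities were quantile-normalized and converted to log2, and limma 3.58.1 (R 4.3.3, lmFit and eBayes) was fitted to all features with 4 groups, or to the 12 UUO arrays for the comparison of genotypes after UUO. P-values were adjusted over all features (Benjamini-Hochberg). The fit was tested on simulated data. Figures, exact tests and promoter searches used Python 3.11.15, numpy 2.4.6, pandas 2.3.3 and matplotlib 3.10.9, and promoters came from RefSeq. All 46 members matched a RefSeq symbol.

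Members and lists were chosen with earlier results of these data known. Every member is named. Values per array were set for the 12 largest called changes after UUO and the 5 smallest p-values between genotypes, and SESN2, MLKL, TRP53 in the comparison of genotypes and the control values of FADD and SESN2 were added. Alternatives covered the normalization, a filter on dim features, the prior variance, array weights, the thresholds, the arrays in the fit, the labelled set and leaving out each array. Leaving out WT arrays 3818 and 3820 together, and setting the 5 IL-33-deficient against the 4 WT arrays of set 2, were added after seeing the data.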

Additional observations from a re-analysis of the deposited data

Results flagged for a closer look

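Among 92 groups of UUO arrays searched (46 members in each genotype), 7 had 1 array that lay well away from its group by Dixon's criterion, which chance alone meets in about 1 in 20 groups. In WT UUO array 3818, MCL1 was at 10.7111, with the other WT UUO arrays at 11.14 to 11.32, and GADD45A was at 9.8148, with the others at 10.52 to 10.95. In WT UUO array 3819, MDM2 was at 9.684, above the others at 9.07 to 9.30, and AIFM1 was at 8.3771, below the others at 8.76 to 8.94. In IL-33-deficient UUO array 3899, CASP4 was at 7.2492, with the others at 7.41 to 7.46. In IL-33-deficient UUO array 3897, FAS was at 7.6604, with the others at 7.77 to 7.82, and FASL was at 6.9829, with the others at 6.86 to 6.89.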

How the results depend on the processing

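Of the log2 fold changes recomputed (9 called after UUO in WT kidneys, 10 in IL-33-deficient kidneys and 5 between genotypes), none changed sign under the alternatives run. Changes that were not called could, such as GADD45G in WT kidneys (0.28 in set 1, -0.46 in set 2) and CDKN1A between genotypes (0.29 and -0.18). In IL-33-deficient kidneys the calls of GADD45A, CDKN1A, TRP53, BCL2L1 and BID held in 26 of 26 alternatives. In WT kidneys the calls of GADD45A and CDKN1A were lost only with the set 1 arrays alone, that of TRP53 also without WT control 3812, and that of BAX was lost in 11 of 26. No paired analysis was possible because no array number is shared between groups. With the set as a block, 0 members were called between genotypes after UUO and 10 had an unadjusted p under 0.05. The small number of controls is the main limit, and dim genes have compressed differences. The causes of the changes below were not tested.

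Members called higher in WT kidneys (10) numbered 0 with set 1 only, 16 with set 2 only, 5 with only the 2 groups compared, and 2 to 12 leaving out each array. Of all features, 0.447% were called higher with set 1 only, 11.5% with set 2 only and 4.46% with only the 2 groups compared. Members called lower in WT kidneys (1) numbered 0 with set 1 only and with a fold change minimum, 2 with array weights and with brighter features only, 5 with set 2 only, 3 without arrays 3818 and 3820, and 0 to 2 leaving out each array (0 without WT control 3812, 2 without 3820). Of all features, 0.59% were called lower in WT kidneys with set 1 only, 4.69% with a fold change minimum and 11.6% with array weights. The share was 17.1% of brighter features, 11.9% with set 2 only and 11.6% without arrays 3818 and 3820. It was 2.44% without WT control 3812 and 10.3% without 3820. In IL-33-deficient kidneys, members called higher (16) numbered 10 with set 1 only (6.14% of all features) and 8 to 20 leaving out each array. Members called lower there (1) numbered 3 with set 2 only and with array weights, 2 as deposited, with median centring, with brighter features only, with only the 2 groups compared and without arrays 3818 and 3820, and 1 to 2 leaving out each array (2 without WT UUO 3818, 3820, 3894 or 3895, IL-33-deficient control 3814 or UUO 3822). Of all features, 12.4% were called lower in IL-33-deficient kidneys with set 2 only and with array weights. The share was 11.6% as deposited, 11.2% with median centring and 22.2% of brighter features. With only the 2 groups compared it was 11.9%, and without arrays 3818 and 3820 it was 12.7%. For the single arrays named it was 7.53% (without 3814) to 12.1% (without 3820). Between genotypes after UUO, between controls and for the difference in response, 0 members were called under every alternative run.

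Of the other pathway genes, those called higher in WT kidneys (11) numbered 0 with set 1 only, 19 with set 2 only, 17 with array weights and without arrays 3818 and 3820, and 3 to 15 leaving out each array, and those called lower (7) 0 with set 1 only and 1 to 9. Of all features, 0.447% were called higher and 0.59% lower in WT kidneys with set 1 only. The share higher was 11.5% with set 2 only, 10.6% with array weights and 11.1% without arrays 3818 and 3820. In IL-33-deficient kidneys, those called higher (15) numbered 9 with set 1 only and 5 to 19, and those called lower (7) 3 with set 1 only and 4 to 8. With set 1 only, 6.14% of all features were called higher there and 6.31% lower. Between genotypes after UUO (0) there was 1 in the 4-group model, with set 2 only, with the 4 WT arrays of set 2, with array weights and with brighter features only, 2 without arrays 3818 and 3820, and 0 to 1 leaving out each array. The shares of all features were 0.7%, 0.447%, 1.25% and 0.441% for the first 4 of these settings. They were 1.85% of brighter features and 0.237% without arrays 3818 and 3820.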
